A study of Mus musculus with 2 samples.

Results

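Gata1 peaks were examined at 9 genes of the red cell membrane skeleton: Sptb, Ank1, Epb41, Epb42, Dmtn, Add1, Add2, Tmod1 and Mpp1. A peak was assigned to a gene when its midpoint lay in the gene body or within 50 kb of either end, on the mouse build mm10. Of 4135 peaks in the list, 16 met this rule, and 8 of the 9 genes had at least 1, against 32% of all 21792 protein-coding genes. The cells came from embryoid bodies on day 5 of differentiation of mouse embryonic stem cells towards blood, sorted for a Runx1-ires-GFP reporter and a Gata1::mCherry reporter, and the series calls them primitive erythroid. Gata1-bound chromatin was recovered with a rabbit antibody to Gata1 (ab11963) in 1 library, and the 1 control library, input chromatin from cells of the same sort whose antibody field names a rabbit IgG, was not analysed here. Nuclei from several sorts had been pooled, so the list stands for a pool and has no replicate. The data hold peak positions and no expression values, so the sorted cell type could not be checked against marker genes.

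The membrane skeleton is a mesh of spectrin filaments beneath the red cell membrane. Spectrin chains form tetramers, which meet at junctions of short actin filaments and are tied to the membrane through ankyrin bound to band 3 and through the product of Epb41 bound to glycophorin C. Defects in several of these proteins cause fragile red cells, among them hereditary spherocytosis and elliptocytosis in humans, and the synonyms listed for the mouse genes include ja and jaundiced for Sptb and nb for Ank1. Gata1 is a zinc finger transcription factor that binds the sequence (A/T)GATA(A/G) and is needed for red cell development.

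Peaks overlapped part of the annotated start window of Epb42 and of Add1, and the closest peak to the Sptb start lay just past it. These 3 promoters, the closest to a peak among the start windows of these genes, are printed together with that of Mpp1, the gene with no peak. Only the Epb42 and Add1 windows hold bases under a peak. Each sequence is the RefSeq window on GRCm38.p6 (another name for mm10) of 250 bases before to 50 after the annotated start, written 5′ to 3′ on the strand of the gene. Capitals mark AGATAA or TGATAA, and likewise AGATAG or TGATAG, on either strand, which are the 4 words of that sequence. The windows are chr2:121036828-121037127 on the minus strand for Epb42, chr5:34573414-34573713 on the plus strand for Add1, chr12:76710498-76710797 on the minus strand for Sptb and chrX:75130967-75131266 on the minus strand for Mpp1.
Epb42: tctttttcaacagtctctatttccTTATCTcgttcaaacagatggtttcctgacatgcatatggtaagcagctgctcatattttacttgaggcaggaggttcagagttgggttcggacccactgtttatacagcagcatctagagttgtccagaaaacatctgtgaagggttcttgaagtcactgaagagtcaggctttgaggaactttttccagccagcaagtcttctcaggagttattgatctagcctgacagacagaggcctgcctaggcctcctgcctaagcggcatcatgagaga
Add1: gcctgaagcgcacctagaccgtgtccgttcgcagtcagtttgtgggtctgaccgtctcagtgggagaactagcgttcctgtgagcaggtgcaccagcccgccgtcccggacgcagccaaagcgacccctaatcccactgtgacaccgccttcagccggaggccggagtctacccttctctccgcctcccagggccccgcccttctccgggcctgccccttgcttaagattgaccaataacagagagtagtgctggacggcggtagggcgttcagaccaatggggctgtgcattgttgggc
Sptb: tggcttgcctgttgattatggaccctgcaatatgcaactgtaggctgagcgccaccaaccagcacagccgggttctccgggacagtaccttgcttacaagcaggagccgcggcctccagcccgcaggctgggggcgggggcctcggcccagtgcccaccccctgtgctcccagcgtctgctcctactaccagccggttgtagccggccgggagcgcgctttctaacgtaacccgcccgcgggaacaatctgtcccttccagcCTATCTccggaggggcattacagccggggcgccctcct
Mpp1: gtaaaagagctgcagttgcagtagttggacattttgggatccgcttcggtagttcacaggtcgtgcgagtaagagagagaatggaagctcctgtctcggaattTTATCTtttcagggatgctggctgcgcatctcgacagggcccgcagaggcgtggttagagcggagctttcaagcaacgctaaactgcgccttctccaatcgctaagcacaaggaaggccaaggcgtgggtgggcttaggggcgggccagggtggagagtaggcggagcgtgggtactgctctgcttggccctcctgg

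The Epb42 peak covered bases 124 to 300 of its window, which is 177 bases that include the start itself. The single GATA word of this promoter, AGATAA on the opposite strand, began 226 bp before the start and lay outside the called interval, 94 bp beyond its edge. The Add1 peak covered bases 1 to 116 of its window, the part farthest before the start. None of the 4 words was present in the Add1 window. The Sptb window lay 199 bp beyond the edge of the closest peak, which was inside the gene, and held AGATAG on the opposite strand 12 bp after the start, 231 bp from that peak. The Mpp1 window held AGATAA on the opposite strand, 147 bp before the start, where no peak was called.

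Of the 9 genes, 7 had a start window in the RefSeq table and Ank1 and Dmtn had none. Epb41 had 3 windows, so 9 windows were searched. AGATAA or TGATAA was found in 2 of them, Epb42 and Mpp1, and in 18.6% of all 32851 start windows in the table. With AGATAG and TGATAG added, a search chosen after the data were seen, 6 of the 9 windows held a match, in Epb42, Mpp1, Sptb, Add2 and 2 of the 3 windows of Epb41, and 29.8% of all windows did. Among the 541 windows that overlapped a peak anywhere in the genome, 43.6% held 1 of the 4 words, against 29.5% of the 32310 that did not. In 38.3% of those 541 windows such a word lay wholly inside the part of the peak within the window. This was the case in neither Epb42 nor Add1, where that part was 177 and 116 bases of a 400 bp peak. CACCC, a core of the sites bound by the erythroid factor Klf1, occurred on either strand in the windows of Tmod1 (3 matches), Mpp1 (2), Sptb (1) and Add2 (1), and in 57.5% of all windows. The E-box CANNTG, which reads the same on both strands in its fixed bases, occurred in 7 of the 9 windows and in 72.3% of all windows. No matches of different motifs overlapped in these windows, and GATAA is contained in AGATAA and TGATAA. A match is a stretch of letters and does not show a bound site. The rest of the Epb42 and Add1 peaks and the sequence beneath the other 14 peaks were not analysed here, so a GATA word there is not excluded.

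The Epb42 window differed in base composition from the others at which a peak lay near the start. It was 46.0% G or C with 3 CpG dinucleotides, against a median of 52.7% and 7 over all start windows. The windows of Add1, Sptb and Tmod1 were 62.7, 65.7 and 66.0% G or C, with 20, 21 and 25 CpG. The Epb41 window closest to a peak was 65.3% with 17 CpG. Other Epb41 windows, farther from that peak, were 48.0% with 3 CpG, close to Epb42, and 74.0% with 37 CpG. The median over windows overlapping a peak was 60.3% with 21 CpG, and 46.0% was their 5th percentile. Epb42 was thus at the GC-poor edge of the start windows under a peak.

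**Figure D1:**
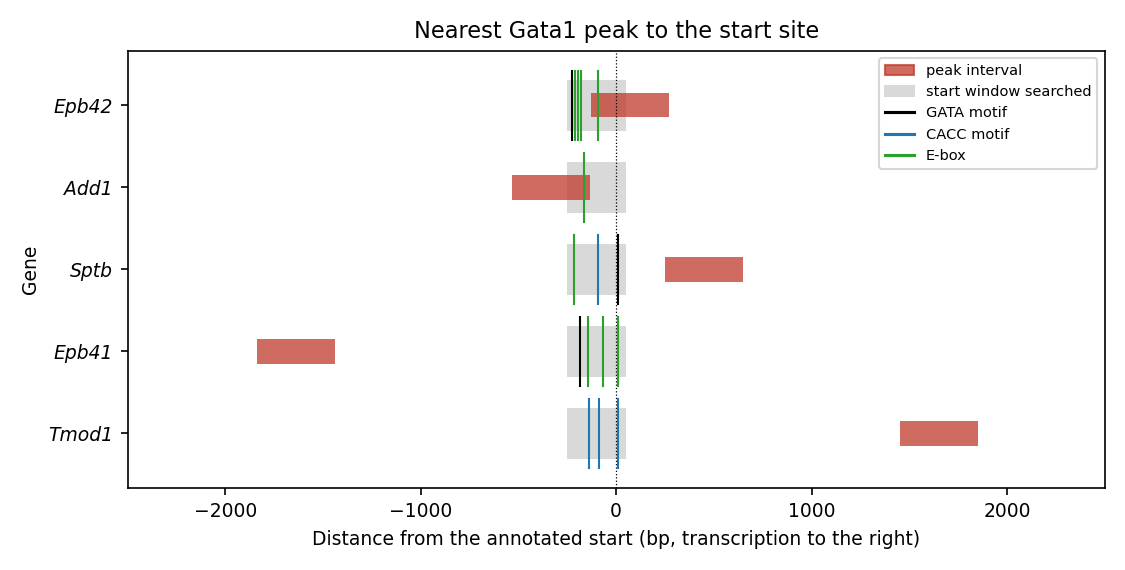
Distance in bp from the annotated start for the 5 genes whose nearest peak midpoint was within 2 kb of a start, with the peak interval in red, the window searched in grey and matches of the 4 GATA words, the CACC box and the E-box as vertical lines. The start of Epb41 is the one closest to the peak. Epb42 and Add1 have a peak that overlaps the window, Sptb has one just inside the gene, and Epb41 and Tmod1 have theirs 1.64 kb before and 1.65 kb after the start.

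Across the 9 genes, the median was 2 peaks per gene, against a median of 0 over all 21792 protein-coding genes. The background share of 32% has a 95% Wilson interval of 31.4 to 32.6%, which covers counting of genes only. At least 2 peaks were found at 6 of the 9 genes, against 10.9% of protein-coding genes, and 1 gene had 4, against 1.04%. Long genes have wider windows, and these genes were long, with a median of 77.1 kb against 17.2 kb over protein-coding genes. Restricted to genes over 20 kb, 7 of 8 skeleton genes had a peak, against 34.9%. With gene bodies only, 6 of 9 had a peak, against 9.34% of all protein-coding genes, and 5 of 8 of those over 20 kb did, against 15.4%. Neither comparison over 20 kb matches the genes for length. The 8 skeleton genes ranged from 21.3 to 176 kb, and no background of like length was drawn. These are descriptions of 1 peak list, and no test was made of a chosen group of genes. The list carries no height or score, so every peak counts the same.

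Of the 16 peaks, 10 lay inside the skeleton gene and 6 outside it. The peak farthest from its gene lay 17.1 kb away (Add2), and the nearest peak beyond the 50 kb limit lay 77.2 kb from Dmtn, so no peak stood near the limit. A coding gene other than the skeleton gene was as close as or closer than it for 2 peaks, 1 at Sptb and 1 at Dmtn. Another coding gene lay within 50 kb of 9 peaks, and for the other 7, which were at Sptb (3), Ank1 (2) and Add2 (2), none did. Counting peaks in any protein-coding gene, 12 of 16 were inside one (75.0%, Wilson 50.5 to 89.8%), and 58.8% of 4133 nuclear peaks were (57.3 to 60.3%). The 16 peaks were admitted for lying in or within 50 kb of these coding genes, whereas the nuclear peaks include distal ones. The shares are therefore not comparable, and the intervals cover counting of peaks only.

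**Figure D2:**
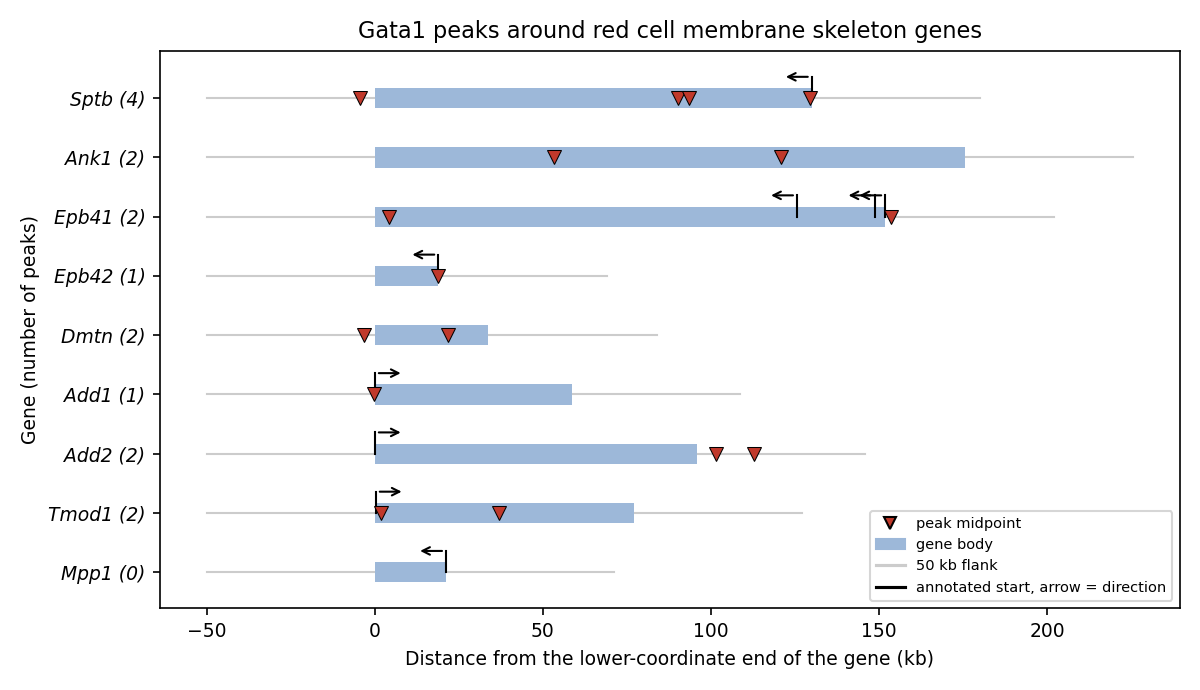
Peak midpoints (red triangles) on the 9 genes, each drawn from its lower-coordinate end in kb, with the gene body in blue, 50 kb flanks in grey and arrows at the annotated starts where the RefSeq table gives them. Peaks lie inside 6 genes, just before the start of Add1, and beyond the far end of Add2, and Mpp1 has none.

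Sptb, the gene for the beta chain of red cell spectrin, carried the most peaks. Its gene spans 130 kb on chromosome 12, and it is transcribed from the higher-coordinate end. The peak closest to the start, chr12:76709900-76710299, had its midpoint 0.448 kb into the gene. A pair of peaks, chr12:76670639-76671038 and chr12:76673742-76674141, lay 39.7 and 36.6 kb into the gene and 3.10 kb from each other. No other 2 peaks of these genes were within 10 kb of each other, and whether the pair marks separate sites or a single wide region cannot be told apart from intervals of fixed width. The fourth peak, chr12:76576070-76576469, was 4.22 kb past the far end of Sptb and inside Plekhg3, whose end meets that of Sptb.

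Ank1 and Epb42 encode proteins that link spectrin to band 3. Ank1, encoding ankyrin-1, is the longest of the 9 genes (176 kb, chromosome 8) and had both of its peaks deep inside. They lay at chr8:23027929-23028328 and chr8:23095408-23095807, which is 53.3 and 121 kb from the lower-coordinate end and 67.5 kb from each other. No other coding gene was within 50 kb of either one. The microRNA gene Mir486 lies within Ank1, and its nearest peak was 46.9 kb away. Epb42, whose product is an inactive relative of transglutaminases that binds band 3 and ankyrin, is the shortest of the 9 genes (19.0 kb, chromosome 2). Its single peak, chr2:121036605-121037004, was centred 0.072 kb after the start, the closest of any peak of these genes to an annotated start. The next nearest coding gene, Tgm5, was 9.31 kb from that midpoint.

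The remaining 6 genes encode proteins of the junctions where spectrin meets actin. The product of Epb41 strengthens the binding of spectrin to actin. The gene had a peak at chr4:132076750-132077149, 1.64 kb before its nearest start and 1.60 kb outside the gene. Its second peak, chr4:131927389-131927788, was at the opposite end of the 152 kb gene, 4.18 kb inside it, with Tmem200b 3.63 kb away. The 2 peaks thus stood 149 kb apart, the widest spacing within any of these genes.

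Dmtn encodes dematin, which bundles actin filaments. Its 33.9 kb gene on chromosome 14 held a peak at chr14:70623834-70624233, 12.0 kb from the higher-coordinate end. A second, chr14:70598804-70599203, was 3.18 kb below the lower-coordinate end and inside Fam160b2. Each of these 2 peaks had 5 other coding genes within 50 kb, the highest number for any peak here.

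Add1 and Add2 encode alpha- and beta-adducin, which cap actin filaments and recruit spectrin to them, and their peaks lay in different places. Add1 had a single peak just before its start, chr5:34573130-34573529, which was centred 0.335 kb from the start and did not reach it. None lay inside the 58.6 kb gene. Add2 had no peak near its start and none inside the gene. Its peaks lay 5.67 and 17.1 kb past the far end, at chr6:86129880-86130279 and chr6:86141304-86141703, over 101 kb from the start. Both lay inside the annotated pseudogene Gm19596, and no other coding gene was within 50 kb.

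Tmod1 encodes tropomodulin-1, which caps the slow-growing ends of the short actin filaments. Its 77.1 kb gene on chromosome 4 held both of its peaks. The first, chr4:46040676-46041075, was 1.65 kb after the start, and the second, chr4:46075668-46076067, was 36.6 kb after it and also inside the long noncoding RNA gene Gm52729. Mpp1 encodes p55, a scaffold that joins the product of Epb41 to glycophorin C. It lies on the X chromosome and had no peak within 100 kb, and the nearest was 543 kb away. The X held 42 peaks in all, and 7.89% of its 963 protein-coding genes had a peak under the same rule.

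Set against annotated starts, the genes fell into 3 kinds. A peak midpoint lay within 1 kb of a start for Epb42, Add1 and Sptb, which is 3 of the 7 genes with a start in the table, against 4.26% of 17492 protein-coding genes (Wilson 3.98 to 4.57%). Within 2 kb, Epb41 and Tmod1 joined them, giving 5 of 7, against 5.45%. For Add2 and Mpp1 the nearest peak was over 100 kb from the start. A start window overlapped a peak at 2 of the 7, against 2.4% of protein-coding genes. The median distance from start to nearest peak was 1.64 kb for the 7 genes and 157 kb for the 17492.

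The number of peaks depended on the window in some of the genes. Within 10 kb, 8 of the 9 genes still had a peak, against 16.6% of protein-coding genes, with 15 peaks in place of 16, because 1 of the Add2 peaks dropped out. Within 1 kb, 7 of 9 had one, against 11.3%, and Add2 was the gene lost. At 100 kb the same 8 genes had a peak, against 43.9%, and the additional peaks fell to Epb41 (2), Ank1 (1) and Dmtn (1). Counts at Tmod1, Epb42 and Mpp1 were the same in every window tried, from the gene body alone to 100 kb.

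**Figure D3:**
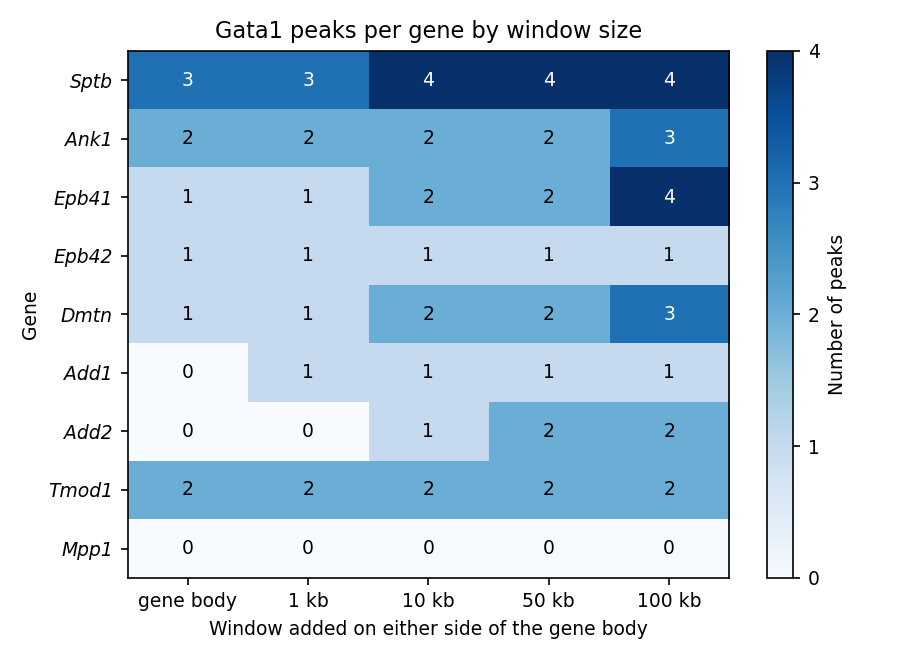
Number of peaks at each of the 9 genes (rows) for gene bodies alone and for windows of 1, 10, 50 and 100 kb on either side (columns), with darker blue for more peaks. Sptb has 3 or 4 in every column and Mpp1 has 0 in every column.

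Other genes of the same structure were examined as 2 lists. The first held 18 partners of the skeleton, among them actins, tropomyosins, capping proteins and the membrane proteins that anchor the mesh. A peak under the 50 kb rule was found at 11 of the 18, which is 61.1% (Wilson 38.6 to 79.7%) against 32% of all protein-coding genes. The median was 1 peak per gene, and the 18 distinct peaks included none of those at the 9 genes. Slc4a1, encoding band 3, had 4, of which only 1 lay within 10 kb, inside the gene. Gypc (glycophorin C), Rhag, Tpm1 and Tmod3 had 2 each, all within 10 kb. Tpm3, Rhd, Kel, Stom, Actg1 and Slc2a1 had 1 each, which lay 46.0 kb from Actg1 and 31.5 kb from Slc2a1. No peak was assigned to Actb, Lmod1, Capzb, Capza1, Capza2, Xk or Cd47. The 3 Cap genes encode subunits of the capping protein of fast-growing actin filament ends.

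The second list held 28 relatives of the 9 genes from the same protein families. A peak was found at 13 of 28 (46.4%, Wilson 29.5 to 64.2%), with a median of 0 and 19 distinct peaks. The share was 32% over all protein-coding genes and 34.9% over those longer than 20 kb. The median length of these relatives was 90.1 kb, and all but Tmod4 and Tgm1 were over 20 kb. Among the spectrins, Sptbn1 and Sptbn4 had 2 peaks each and Sptan1 and Sptbn5 had none. Among the ankyrins, Ank3 had 2 and Ank2 none, although both are far longer than Ank1 (494 and 579 kb). None of the 6 relatives of Epb41 (Epb41l1, Epb41l2, Epb41l3, Epb41l4a, Epb41l4b and Epb41l5) had one. Gamma-adducin, encoded by Add3, had 1 peak inside the gene, where Add1 and Add2 had none inside theirs. Tmod2 and Tmod3 are neighbours and had the same 2 peaks, inside Tmod3, and Tmod4 had none. Tmod3 is on both lists. Mpp2 and the dematin relatives Svil and Avil had 2 each, and Mpp5, Mpp7, Tgm1 and Tgm2 had 1 each. The nearest peak lay 37.3 kb from Avil and 43.9 kb from Tgm1, and the peaks of the others lay inside the genes. Mpp3, Mpp4, Mpp6, Tgm3 and Vil1 had none. Within 10 kb, 8 of the 9 skeleton genes, 9 of 18 partners and 11 of 28 relatives had a peak, against 16.6% of all protein-coding genes. With gene bodies only, 6 of the 9 skeleton genes (66.7%, Wilson 35.4 to 87.9%), 7 of 18 partners (38.9%, 20.3 to 61.4%) and 10 of 28 relatives (35.7%, 20.7 to 54.2%) had a peak. These 3 intervals overlap, and the share was 9.34% over all protein-coding genes and 15.4% over those longer than 20 kb. The skeleton genes and the lists were chosen with results of these data known, and the difference between lists was not tested.

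**Figure D4:**
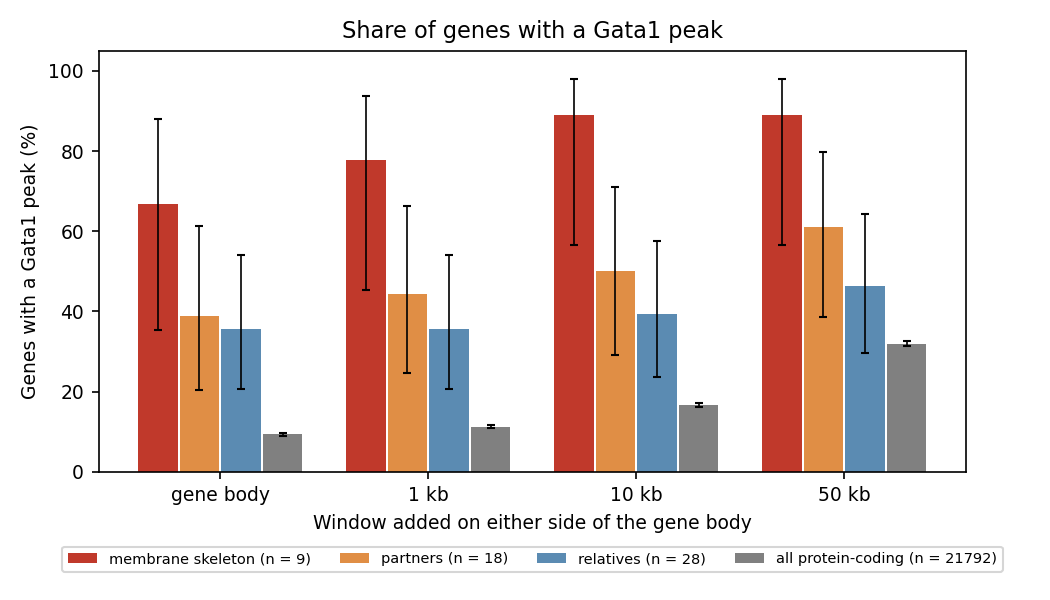
Percent of genes with a peak for the 9 skeleton genes, 18 partners, 28 relatives and all 21792 protein-coding genes, for gene bodies alone and windows of 1, 10 and 50 kb, with 95% Wilson intervals that cover counting of genes only. The skeleton genes have the highest bar in each window and all protein-coding genes the lowest. The intervals of the 3 lists overlap in each window.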

How the data were processed

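The authors deposited 1 list of peak positions (start and end, with no score, height or p-value per peak), which is the only kind of file used, and every interval in it is 400 bp wide. Bowtie2 2.0.6, MACS2 2.0.10 and the build mm10 are named in the submitters' processing notes. How they were set, which threshold applied, whether the input entered and how intervals were resized is not given in the sources used here, and the read depth is unknown. Per the labels' protocols, chromatin was fixed with 1% formaldehyde, 7 µg of antibody was used with histone and mouse RNA as carriers, and fragments of 150 to 400 bp were selected.

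Gene bodies and start windows came from RefSeq tables of GRCm38.p6. Of 49997 gene entries, 340 with scaffold coordinates and 17 unplaced ones were left out, and 21792 of the rest were protein-coding. Scaffold coordinates were taken to be starts under 3 Mb, apart from those on the Y and the mitochondrial genome, which were kept. Positions are 1-based. Peak counting was tested on simulated data. The 9 genes and the lists were chosen with earlier results of these data known. All genes of the lists were to be named if they had a peak, and genes without one were named after their values were seen. A few genes of the planned lists are not reported here and are not among the 18 partners and 28 relatives counted. No test was run. The planned stricter threshold and motif search beneath peaks were not run, since no score or genome was used. Python 3.11.15 with numpy 2.4.6, pandas 2.3.3 and scipy 1.17.1 was used.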

Additional observations from a re-analysis of the deposited data

How the results depend on the processing

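The number of skeleton genes with a peak stayed between 6 and 8 of 9 under the 7 alternatives tried for it: windows of 10, 1 and 100 kb, gene bodies only, any overlap of 1 bp, the nearest protein-coding gene only, and peaks under 10 kb apart counted once. Distinct peaks numbered 10 with gene bodies only, 16 with the 50 kb window and 20 with 100 kb. The median per gene was 1 with gene bodies only and with 1 kb. The share of all protein-coding genes with a peak moved more: it was 32% with 50 kb, and 16.6% with 10 kb, 11.3% with 1 kb, 9.34% with gene bodies only, 43.9% with 100 kb and 13.8% with the nearest gene only. Peaks within 1 kb of a gene end numbered 3, and 5 with 2.5 kb and 8 with 5 kb. These follow from the size of the window. The count of 2 genes with AGATAA or TGATAA in a start window was the same for GATAA and for AGATAA alone, and became 5 with AGATAG and TGATAG added, an alternative chosen after seeing the data. No paired analysis was possible because there is 1 ChIP library and no test. The depth is unknown, so the absence of a peak means only that none was called.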
